A study of Arabidopsis thaliana with 4 samples.

Results

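The 7 genes described here, PUB22, PUB23, PUB24, CML37, CML38, STZ and WRKY53, belong to the genes that Arabidopsis switches on within minutes of touch, wounding, cold, salt or contact with microbes. They were chosen by name, with earlier results of these data known. Each matched 1 probe set, so they account for 7 of the 22746 probe sets analysed. They were followed as a readout of how the flasks were handled and of early stress signalling.

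Mechanical and microbial stimuli raise calcium in the cytosol and start a burst of reactive oxygen and a cascade of MAP kinases. Calcium sensors of the calmodulin-like family, zinc finger and WRKY transcription factors, and U-box ubiquitin ligases that damp the response are transcribed early and for a short time. Shaking and handling of plants can set off the same genes.

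There were 4 groups of seedlings of the Landsberg erecta (Ler) accession, all raised to an age of 10 days in gently shaken liquid medium. The first, GR-REV dexamethasone (dex), carried a transgene for the transcription factor REVOLUTA fused at its amino terminus to the glucocorticoid receptor domain, with mutations in the site that microRNAs recognise, driven by the constitutive CaMV35S promoter, and was given 50 µg/ml dexamethasone in 0.1% ethanol over 1 h. Seedlings of the GR-REV mock group carried that transgene and were given 0.1% ethanol alone. The wild type (WT) dex and WT mock groups lacked the transgene and were given the same treatments. Dexamethasone, a synthetic glucocorticoid, frees the fusion protein to enter the nucleus, and REVOLUTA's immediate target genes were what the study sought. Each group was 1 flask and 1 Affymetrix ATH1 array, and whether GR-REV was 1 line or several is not given in the sources used here. Labels of the GR-REV arrays conflict: titles and treatment protocols name one treatment for each array, source names the opposite one. Titles and protocols set the groups here. Under the source names, every GR-REV difference between dex and mock given below changes sign, and the signals given for GR-REV dex belong to the mock flask.

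The values are MAS5 signal intensities on a linear scale, and signals under 91.4, the 40th percentile, were raised to this floor before log2 was taken. The share of probe sets above it was 58.9% in GR-REV dex, 59% in GR-REV mock, 59.2% in WT dex and 62.9% in WT mock. The WT mock array also had the lowest 25S ribosomal RNA control signal, 293, against 768 to 929 on the others. Its ratio of 3′ to 5′ actin signal was the lowest, 9.33, against 10.1 to 13.9. For GAPDH its ratio was the highest, 1.78, against 1.29 to 1.6. The ubiquitin ratio was higher in GR-REV, at 2.21 in dex and 2.25 in mock, against 1.67 in WT dex and 1.57 in WT mock. The GAPDH ratio was lower in GR-REV, at 1.29 in dex and 1.46 in mock, against 1.6 in WT dex. Actin ratios of the genotypes overlapped. The part of these ratios in the genotype differences was not tested. Rubisco activase (RCA), a leaf gene and the only one of 8 shoot markers that could be matched, had signals of 18365 and 18574 in GR-REV, against 28804 and 20706 in WT. The root hair gene EXPA7, the only matched one of 8 root markers, was below the floor on all 4 arrays, at 45.3 to 75.7. None of 7 flower or seed markers could be matched. In RNA of whole seedlings, fewer cells of a type and less RNA per cell cannot be told apart.

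**Figure D1:**
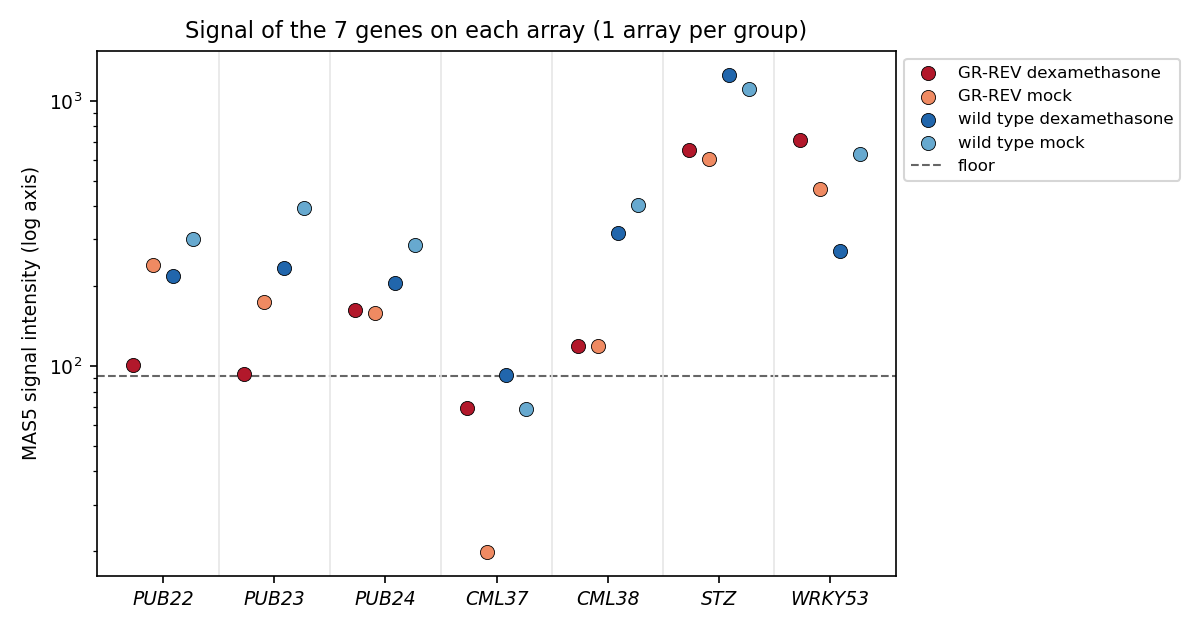
Signal intensity (log axis) of the 7 genes on each of the 4 arrays, 1 point per array, with the floor of 91.4 as a dashed line. PUB23, PUB24, CML38 and STZ were lower on both GR-REV arrays than on both WT arrays, WRKY53 was lowest in WT dex at 272, and CML37 lay near or below the floor.

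PUB22, PUB23 and PUB24 encode closely related U-box ubiquitin ligases that act together to damp immune signalling, and PUB22 and PUB23 also take part in the response to drought. PUB22 (AT3G52450) had a signal of 101 in GR-REV dex and 241 in GR-REV mock, against 218 in WT dex and 302 in WT mock. The GR-REV dex array was thus the low one, 2.15-fold below the nearest other array, while the GR-REV mock signal lay between those of the WT arrays. PUB23 (AT2G35930) had 93 in GR-REV dex and 174 in GR-REV mock, against 234 in WT dex and 395 in WT mock. Its arrays spanned 4.24-fold, the widest range of the 7 genes, and both GR-REV signals lay below both WT signals. PUB24 (AT3G11840) had 162 in GR-REV dex and 158 in GR-REV mock, against 205 in WT dex and 285 in WT mock. Both GR-REV arrays were again below both WT arrays, by 1.26-fold at the nearest. In PUB22 and PUB23 the GR-REV dex signals lay just above the floor, where MAS5 values are least precise.

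CML37 and CML38 encode calmodulin-like calcium sensors, CML37 known from wounding and drought and CML38 from wounding and low oxygen. CML38 (AT1G76650) had 119 in both GR-REV dex and GR-REV mock, against 318 in WT dex and 405 in WT mock. The GR-REV arrays were at the same level, and the nearer WT array was 2.66-fold above them, the clearest separation of the genotypes among the 7 genes. Both GR-REV signals were, however, near the floor of 91.4, where MAS5 values are least precise. CML37 (AT5G42380) had 69.4 in GR-REV dex and 19.9 in GR-REV mock, against 92.2 in WT dex and 68.5 in WT mock. Only the WT dex value passed the floor, and by 1.01-fold, so at this floor CML37 had no measurable difference and entered no test. At the 25th percentile floor, 37.4, its log2 difference, dex minus mock, was 0.89 in GR-REV and 0.43 in WT. GR-REV minus WT was -0.87 in mock and -0.41 in dex there. The GR-REV mock signal was still raised to that floor.

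STZ, also called ZAT10, encodes a zinc finger protein that represses transcription and responds to salt, cold, drought and strong light. STZ (AT1G27730) had 653 in GR-REV dex and 605 in GR-REV mock, against 1255 in WT dex and 1103 in WT mock. Both GR-REV arrays were lower, the nearest pair of arrays being 1.69-fold apart, and the 2 arrays of each genotype were close together. WRKY53 encodes a transcription factor of leaf senescence that responds to hydrogen peroxide and salicylic acid, and it has been reported as a direct target of REVOLUTA. WRKY53 (AT4G23810) had 713 in GR-REV dex and 466 in GR-REV mock, against 272 in WT dex and 632 in WT mock. It was the only one of the 7 with its highest signal in GR-REV dex, 1.13-fold above WT mock, as 24.7% of all probe sets tested had, and the genotypes overlapped.

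Genotype was tested over both treatments, 2 GR-REV against 2 WT arrays, with limma on all 14034 probe sets that passed the floor on 2 arrays or more. CML38 was lower in GR-REV by 1.59 ± 0.24 on the log2 scale (SE), a 3.01-fold difference, with a Benjamini-Hochberg adjusted p of 0.0432 in limma. The calls lower in GR-REV made up 0.492% of all probe sets tested and those higher 1.28%, and CML38 was 1 of the 6 genes tested here. Its call did not hold without 3 of the 4 arrays in turn: adjusted p in limma was 0.117 without WT mock, 0.0858 without WT dex, 0.0547 without GR-REV dex and 0.0478 without GR-REV mock. In these 4 fits its log2 difference lay between -1.76 and -1.41. Over all 11 alternatives the adjusted p lay between 0.0141 and 0.295 and was under 0.05 in 5, and the log2 difference lay between -1.76 and -0.39, the last with a floor at the 60th percentile, to which both GR-REV signals were raised.

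The other 5 genes did not pass the limma genotype test, although STZ and PUB23 had an unadjusted p under 0.05, as did 7.95% of all probe sets tested on the lower side. The STZ difference was -0.90 ± 0.18 on the log2 scale (SE, adjusted p = 0.0781 in limma) and that of PUB23 -1.26 ± 0.41 (adjusted p = 0.217 in limma). With treatment as a term in the model, both passed, at adjusted p in limma of 0.0211 for STZ and 0.0277 for PUB23. In that fit 997 probe sets were called, against 249 without the term. It uses the treatments of the titles and was not run with those of the source names. By the titles, PUB23 differed between genotypes by -1.18 in mock and -1.33 in dex on the log2 scale. By the source names these were -2.09 and -0.43, and those of STZ -0.76 and -1.05. PUB22 and PUB24 differed by -0.72 ± 0.45 and -0.59 ± 0.26 (SE), with adjusted p in limma of 0.514 and 0.335. WRKY53 stood on the other side of 0, at 0.47 ± 0.45 (SE, adjusted p = 0.677 in limma), and lay between -0.13 (without WT dex) and 1.08 (without WT mock) over its alternatives. The spread in this test is that between the mock and the dex flask of a genotype, so it holds any response to treatment.

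In 4 of the 6 genes tested, PUB23, PUB24, CML38 and STZ, both GR-REV arrays lay below both WT arrays, and in none did they lie above. Across all 14034 probe sets tested the first held for 24.2% and the second for 22.4%. The median genotype difference of the 6 genes was -0.81 on the log2 scale, and -0.02 over all probe sets tested.

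**Figure D2:**
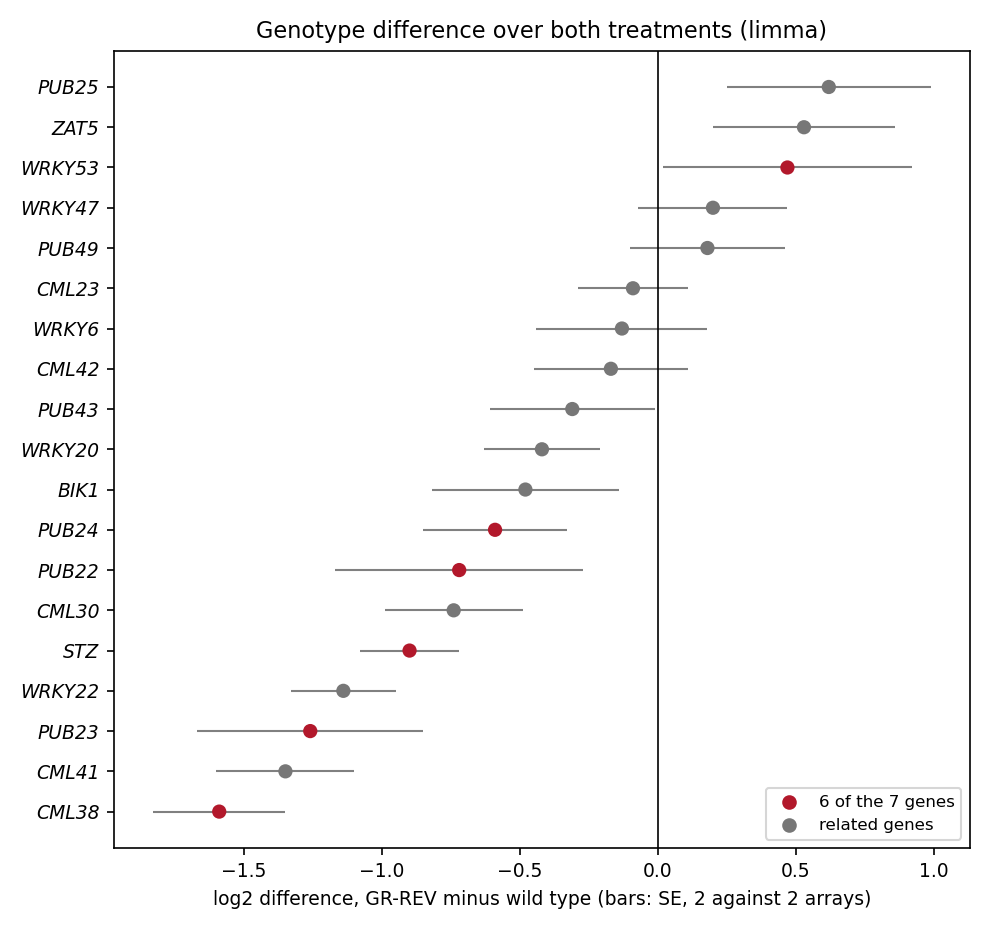
Log2 difference, GR-REV minus WT, over both treatments for 6 of the 7 genes (red) and related genes of the same families and pathways (grey), with bars for the standard error in limma (2 against 2 arrays). CML38 at -1.59, CML41 at -1.35, PUB23 at -1.26 and WRKY22 at -1.14 lay lowest, and PUB25 at 0.62 lay highest.

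Set apart by treatment, the genotype difference had no replicate and no test, and 2-fold or more was the rule used. In mock flasks, all 6 genes were lower in GR-REV, beside 54.2% of all probe sets, and CML38 at 3.39-fold and PUB23 at 2.27-fold passed the rule. Among all probe sets tested, 4.62% were 2-fold lower and 3.76% 2-fold higher in GR-REV mock than in WT mock. That split depends on scaling: 528 higher and 649 lower in the deposited scaling became 627 and 546 when quantile normalized, and 777 and 417 when divided by the array medians. In dex flasks, PUB22 at 2.15-fold, PUB23 at 2.52-fold and CML38 at 2.66-fold were lower in GR-REV, and WRKY53 was 2.62-fold higher. The background there was 3.31% lower and 5.09% higher. At any size, 5 of the 6 genes were lower, all but WRKY53, beside 48.1% of all probe sets. STZ differed by similar amounts with and without the hormone, -0.94 with dex and -0.87 in mock on the log2 scale. PUB24 differed by -0.34 with dex and by -0.85 in mock. With the treatments of the source names, GR-REV was 2-fold lower in mock for PUB22, PUB23 and CML38, and in dex for CML38 and STZ. Of all 14034 probe sets tested, 871 were then 2-fold lower and 670 higher in mock, and 461 lower and 755 higher in dex. The counts of genes by direction also changed. WRKY53 was then higher in GR-REV in mock, at 0.17 on the log2 scale, and the others of the 6 genes lower. In dex, PUB22 at 0.15 and WRKY53 at 0.78 were higher and the others lower.

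**Figure D3:**
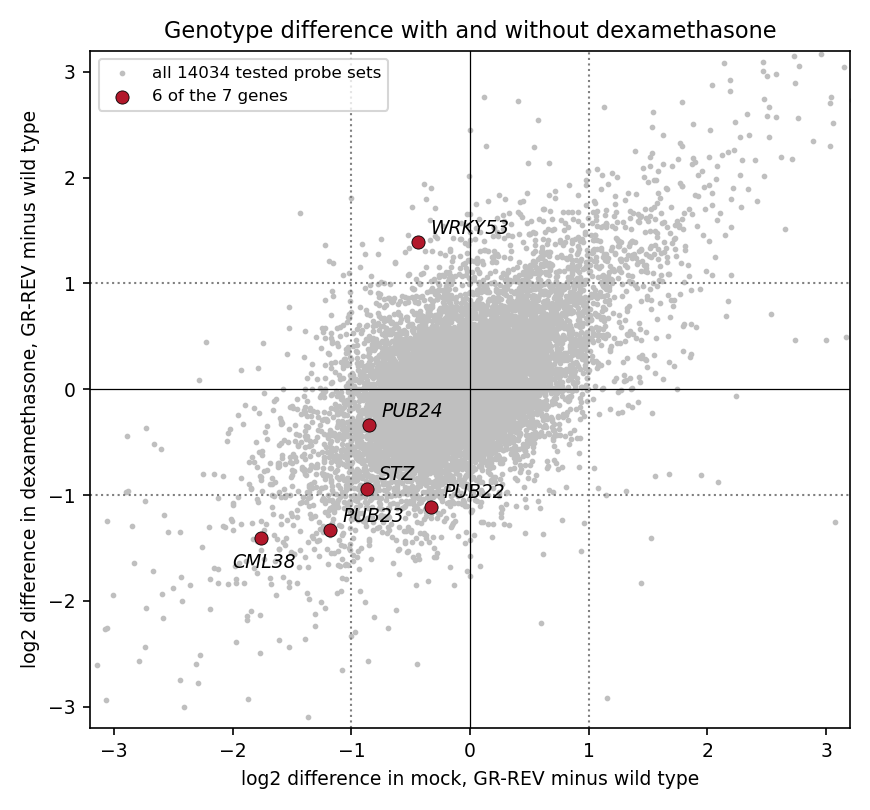
Log2 difference between GR-REV and WT in mock (horizontal) and in dex (vertical) for all 14034 tested probe sets (grey, 43 of them outside the axes) and 6 of the 7 genes (red), with dotted lines at 2-fold. CML38 and PUB23 were past 2-fold lower on both axes, and WRKY53 was at -0.44 in mock and 1.39 in dex.

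PUB22 and PUB23 had lower signals in the dex flask in both genotypes, as did 31.2% of all probe sets tested. The size was 2.38-fold in GR-REV and 1.39-fold in WT for PUB22, and 1.87-fold in GR-REV and 1.69-fold in WT for PUB23. PUB22 was the only one of the 6 genes past 2-fold in the GR-REV pair, where 1.90% of all probe sets tested were 2-fold lower and 1.91% 2-fold higher. Over both genotypes, limma with genotype as a term gave -0.86 ± 0.28 for PUB22 and -0.83 ± 0.25 for PUB23 (SE, log2 scale), with adjusted p of 0.345 and 0.309, so neither passed. None of the 6 genes was called by this test in limma; PUB22 and PUB23 had an unadjusted p under 0.05, as did 6.91% of all probe sets on the lower side. Of all probe sets tested 0.0428% were called. Those 6 calls were 4 higher and 2 lower, which became 26 and 58 when quantile normalized and 222 and 196 when divided by the array medians. Under the source names these fits gave 0.39 for PUB22 and 0.08 for PUB23.

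In WT, WRKY53 was 2.32-fold lower with dex and passed the 2-fold rule alone among the 6 genes. Over all probe sets tested 2.55% were 2-fold lower and 0.855% 2-fold higher there. That split, 120 higher and 358 lower, became 205 and 237 when quantile normalized, and 303 and 165 when divided by the array medians. The last scaling put the median of probe sets above the floor throughout at 0.15 on the log2 scale, against -0.06 in the deposited scaling. In WT, dex over mock, PUB24 was lower by 1.39-fold and CML38 by 1.27-fold, and STZ was 1.14-fold higher. In GR-REV, the differences of PUB24, CML38 and STZ were 0.03, 0.00 and 0.11 on the log2 scale. In WT 5 of the 6 genes were lower with dex, all but STZ, under the deposited scaling, quantile normalization and division by the median, beside 56.2% of all probe sets as deposited. In GR-REV 2 of 6 were, beside 47.7%. The median difference of the 6 genes was 0.02 in GR-REV and -0.48 in WT, and over all probe sets tested 0.00 and -0.06.

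WRKY53 differed in direction between the genotypes: the dex flask was 1.53-fold higher in GR-REV and 2.32-fold lower in WT. The GR-REV difference minus the WT difference was 1.83 on the log2 scale and had no test. It was at least as large in 0.413% of all probe sets tested. Opposite signs were found in 3 of the 6 genes, with PUB24 and CML38, and in 39.1% of all probe sets. The CML38 difference in GR-REV was 0.00, and it shared the sign of WT when quantile normalized (-0.03) and when divided by the array medians (-0.01), which leaves 2 genes in both scalings. With the treatments of the source names WRKY53 was lower with dex in both genotypes, with log2 differences of -0.61 in GR-REV and -1.22 in WT. PUB24 and CML38 then also had the same sign in both genotypes, and PUB22, PUB23 and STZ had opposite signs.

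**Figure D4:**
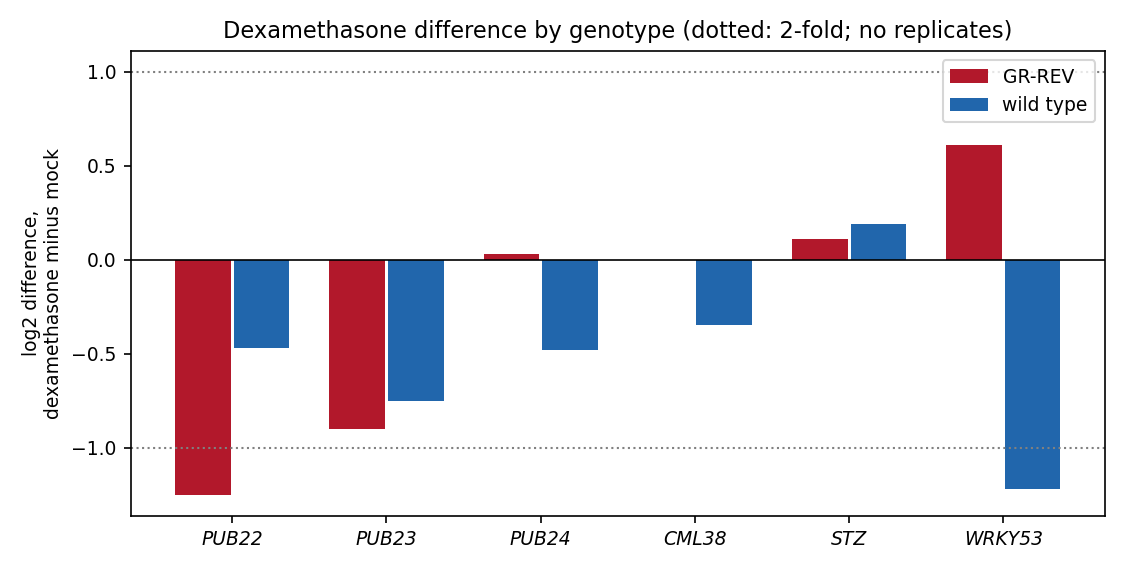
Log2 difference, dex minus mock, in GR-REV (red, left) and WT (blue, right) for the 6 genes above the floor on all arrays, 1 array per group and dotted lines at 2-fold. PUB22 at -1.25 in GR-REV and WRKY53 at -1.22 in WT passed the line, and WRKY53 was at 0.61 in GR-REV.

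WT mock held the highest signal for PUB22, PUB23, PUB24 and CML38, 4 of the 6 genes, in all 3 scalings. Over all probe sets tested WT mock was the highest array in 32.3%. Their margins over the next array were between 1.25-fold and 1.69-fold, so none of the 4 was 2-fold above each other array, a mark that 0.613% of probe sets reached. This is the array with the low 25S ribosomal RNA signal and the most probe sets over the floor, and the part of these in the result was not tested. GR-REV mock was lowest for PUB24, CML38 and STZ, as in 22.7% of all probe sets, by at most 1.08-fold below GR-REV dex. GR-REV dex was lowest for PUB22 and PUB23, as in 23.5% of all probe sets, and only PUB22 was 2-fold below each other array there, as were 0.520% of probe sets.

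The 6 genes did not share 1 pattern over the 4 arrays. Log2 signals were centred on each gene's mean, and the Euclidean distance between the 4 values of a pair of genes was taken as the measure of likeness, where 0 means the same pattern. PUB24 and STZ were nearest to each other, at 0.57, followed by PUB22 and PUB23 at 0.63 and PUB23 and CML38 at 0.78. WRKY53 lay apart from every other gene, between 1.26 from PUB24 and 2.20 from CML38. The mean pattern of the 6 genes, centred on 0, was -0.50 in GR-REV dex, -0.27 in GR-REV mock, 0.13 in WT dex and 0.64 in WT mock. PUB24 was nearest to it at 0.25 and WRKY53 farthest at 1.46.

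Other early response genes were counted from lists of touch genes, zinc fingers of the STZ class, early WRKY factors, ERF and CBF factors, jasmonate genes, immune signalling and heat stress. Of the 7 touch genes, 2 could be matched: CML23 was above the floor on 3 arrays and differed by -0.09 between genotypes, and CML39, the neighbour of CML38, was above it on 1. Of the 10 zinc fingers 2 were matched and of the 15 WRKY factors 2, and of the 26 immune genes 1. None of the 14 ERF and CBF, 14 jasmonate and 7 heat genes could be. No gene of these lists was called by limma for genotype or treatment.

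WRKY22, which acts downstream of the MAP kinases that flagellin activates, had signals of 387 and 368 in GR-REV, against 799.9 and 861 in WT. Its arrays separated by genotype as those of STZ did, and its difference was -1.14 ± 0.19 on the log2 scale (SE, adjusted p = 0.055 in limma), which did not pass. ZAT5, a zinc finger gene, ran the other way, at 441 in GR-REV dex and 267 in GR-REV mock against 273 in WT dex and 206 in WT mock. BIK1, a cytoplasmic kinase that relays signals from immune receptors, had 693 in GR-REV dex, and 1383 in GR-REV mock, 1374 in WT dex and 1361 in WT mock. Like PUB22 it was low on the GR-REV dex array alone, just short of 2-fold below GR-REV mock. WRKY6, a factor of senescence and defence, was lowest in WT dex like WRKY53, at 279, with 346 and 322 in GR-REV and 479 in WT mock. ZAT18 was below the floor on every array.

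Among relatives of the 7 genes, 4 calmodulin-like genes were tested, and none of them passed the limma genotype test. CML41 had 163 in GR-REV dex and 217 in GR-REV mock, against 513 in WT dex and 449 in WT mock, a difference of -1.35 ± 0.25 on the log2 scale (SE, adjusted p = 0.0734 in limma). CML30 had 155 and 173 in GR-REV, against 239.7 and 310.4 in WT (-0.74 ± 0.25, SE, adjusted p = 0.227 in limma). CML42 and CML23 differed by -0.17 ± 0.28 and -0.09 ± 0.20 (SE), less than their errors, and CML43 was below the floor on every array. Without CML37 and CML38, the 4 tested genes of the family had a median of -0.45 on the log2 scale, against -0.02 over all probe sets. In 2 of the 4 both GR-REV arrays lay below both WT arrays, beside 24.2% of all probe sets tested. Of 17 calmodulin and calmodulin-like genes named by symbol, 7 were matched to a probe set, so these values do not cover the whole family.

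Of 22 U-box genes named by symbol, 9 were matched to a probe set. The family without PUB22, PUB23 and PUB24 had 3 genes tested of 6 matched. In none of them did both GR-REV arrays lie below both WT arrays, beside 24.2% of all probe sets tested. PUB25, a ligase that with PUB26 marks BIK1 for breakdown, had 266 in GR-REV dex, and 129 in GR-REV mock, 115 in WT dex and 127 in WT mock. It was 2.05-fold higher with dex in GR-REV, opposite in direction to PUB22. PUB26 was also highest in GR-REV dex, at 115, the only one of its arrays above the floor. PUB43 had 322 and 462 in GR-REV, against 395 and 578 in WT, and was lower with dex in both genotypes, with log2 differences of -0.52 in GR-REV and -0.55 in WT. PUB49 differed by 0.18 between genotypes, and PUB15 and PUB19 were below the floor throughout. Of 67 WRKY genes named by symbol, 6 were matched to a probe set. In the WRKY family without WRKY53, 4 genes were tested, with a median genotype difference of -0.27, which does not cover the whole family. WRKY20 had 342 and 367 in GR-REV, against 502 and 445 in WT, and WRKY47 differed by 0.20.

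The genes of the array most like each of these were named by their distance among 1116 probe sets with 1 gene, above the floor on all 4 arrays and with a range of at least 1 on the log2 scale. Nearest to the mean pattern was AT3G11210 at a distance of 0.04, with signals of 288 and 338 in GR-REV, against 431 and 618 in WT, followed by AT5G18600 at 0.07, AT1G34570 at 0.08, and AT1G03730 and AT2G42950 at 0.10 each. For CML38 they were AT2G40960 at 0.13, AT1G48750 at 0.20 and AT2G20142 at 0.25. AT2G40960 had 227 and 253 in GR-REV, against 644 and 774 in WT. For STZ they were AT1G55210 at 0.10, AT1G03400 at 0.11 and AT1G67620 at 0.13. For PUB22 they were AT1G07280 at 0.12, AT1G48200 at 0.17 and AT1G67860 at 0.18, and for PUB23 AT5G56980 at 0.12, AT2G43530 at 0.15 and AT2G25200 at 0.19. For WRKY53 they were AT2G39920 and DIM1B at 0.23 each and XERICO, a RING finger gene linked to abscisic acid, at 0.24. XERICO had 726 in GR-REV dex and 489 in GR-REV mock, against 339.6 in WT dex and 646 in WT mock, the same order of arrays as WRKY53. Each distance rests on 4 arrays, and these genes are named as a description.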

How the data were processed

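RNA from 100 mg of seedlings per flask was hybridized to 1 array per group. The deposited values are intensities, 1 per probe set on a linear scale, which the authors made with MAS5, per the submitters' processing notes, in a version that no source used here names. The arrays shared a 2% trimmed mean of 499.8 and were not scaled again. All arrays were run on 1 day, each in its own fluidics module, per the file headers. Group and module cannot be told apart. The settings files were not used otherwise.

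Of 22810 probe sets, 64 controls were left out. Genes were named by the platform annotation, with symbols updated from RefSeq genes (TAIR10.1): 13513 probe sets had 1 gene, 503 several and 8730 none listed, and 13436 matched RefSeq. Signals under the floor (40th percentile) were set to it before log2. Pairs of arrays were compared by a 2-fold rule without a test. Fits with limma 3.58.1 (R 4.3.3; a trended eBayes after lmFit; Benjamini-Hochberg adjusted p under 0.05) tested genotype, with 2 residual degrees of freedom, and treatment with genotype as a term, with 1. The fits were tested on simulated data. Since each group is 1 flask, no p-value rests on replicate flasks, and the number of arrays limits the precision.

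The members, lists and tests were chosen with earlier results of these data known. All 7 genes are named, up to 4 genes per list by range (further family members for completeness, after their values were seen), the 5 probe sets nearest to the mean pattern and the 3 nearest to each gene with a range of at least 1. Alternatives were floors at the 25th and 60th percentile, the floor value added, quantile normalization, division by the median, a 3-fold rule, the treatments of the source names, no filter, treatment as a term and leaving out each array.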

Additional observations from a re-analysis of the deposited data

Results flagged for a closer look

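For 3 of the 6 genes the dexamethasone difference had opposite signs in GR-REV and WT, with 1 array per group and without a test of that difference; 39.1% of all probe sets tested had opposite signs. The difference between them was 1.83 on the log2 scale for WRKY53, 0.61 in GR-REV and -1.22 in WT. It was 0.51 for PUB24, 0.03 in GR-REV and -0.48 in WT, and 0.35 for CML38, 0.00 in GR-REV and -0.35 in WT, so in these genes the GR-REV arrays hardly differed. The CML38 difference in GR-REV was -0.03 when quantile normalized and -0.01 when divided by the array medians, the sign of WT, so 2 genes had opposite signs in those scalings.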

How the results depend on the processing

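Counts past 2-fold in either direction are given for GR-REV dex over mock, WT dex over mock, GR-REV over WT in mock and GR-REV over WT in dex, in this order. Probe sets numbered 535, 478, 1177 and 1179, and 1, 1, 2 and 4 of the genes described passed. At the 25th percentile floor the probe sets were 996, 1238, 2143 and 1869. At the 60th they were 234, 168, 600 and 613, with 0, 1, 0 and 1 genes, since PUB22 and PUB23 then exceed the floor on 1 array each and the GR-REV signals of CML38 are raised to it, which puts its differences at -0.56 in mock and -0.22 in dex. With the floor value added they were 283, 178, 738 and 764, with 0, 0, 1 and 1 genes, as this shrinks differences of low signals. At 3-fold they were 113, 49, 346 and 335, with 0, 0, 1 and 0 genes. With the treatments of the source names the probe sets were 535, 478, 1541 and 1216, with 1, 1, 3 and 2 genes. PUB22 then reversed, to 1.25 in the GR-REV pair and 0.15 against WT in dex. The limma genotype test called 249 probe sets and 1 of the genes, CML38. Probe sets called were 427 with division by the median, 418 with the floor value added, 30 without the filter and 997 with treatment as a term. Genes called were 0 at either other floor and without the filter, and 3 with treatment as a term. The fit with that term was run only with the treatments of the titles. Leaving out each array gave 81 to 368 probe sets and 0 to 1 genes. The treatment test called 6 probe sets, 418 with division by the median, 84 after quantile normalization, 62 with a floor at the 25th percentile, 2 with the floor value added, and 0 without the filter and with the treatments of the source names; none of the genes was called in any. Where no construction is named, the cause was not tested. The counts of genes below WT on both GR-REV arrays (4), highest in WT mock (4) and lower with dex in WT (5) were also run under the other floors and scalings, chosen after seeing the data. They changed only at the 60th percentile, to 2, 1 and 2 of 3 genes. The labels number no replicates and each group has 1 array, so replicate flasks could not be paired. The fit with treatment as a term pairs by treatment, as it sets each GR-REV array beside the WT array of its treatment. The precision of low signals is limited by background.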
